A study of Homo sapiens with 6 samples.

Results

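The 10 genes described here encode the main repressors and activators of the circadian clock: NR1D1, NR1D2, PER1, PER2, PER3, CRY1, CRY2, BHLHE40, ARNTL and DBP. They were taken by gene name from a table of 58735 human genes, and all 10 were among the 13579 genes expressed highly enough to be tested. The set was chosen by the expression values of NR1D1, one of the genes with the largest rises in these same samples, so the values of its members, and the calls that a fit across all genes gave them, are given below as a description and support nothing. Human AZ-521 cells, labelled as wild type and as a gastric cancer line but listed by cell banks as a duodenal carcinoma line, had received 10 µM platycodon D (PD), a saponin of the balloon flower, or the solvent DMSO for 48 h. Each group had 3 samples of one line, and polyadenylated RNA was sequenced. Nothing in the labels says that the samples were separate cultures, so errors and p-values cover the spread among these 6 libraries alone, which may be technical.

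The cellular clock is a loop of transcription and repression. ARNTL (also called BMAL1) pairs with CLOCK and binds E-box motifs in the genes of its own repressors, the PER and CRY proteins, which then shut the pair down. A second loop runs through the nuclear receptors NR1D1 and NR1D2 (REV-ERB alpha and beta), which bind RORE motifs and repress ARNTL, with heme as their ligand. DBP drives genes through D-box motifs, and BHLHE40 (DEC1) competes for E-boxes. The labels name neither a step that synchronised the cells nor a further harvest time, so a different level and a different phase of the clock cannot be told apart here.

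Values are FPKM, fragment counts scaled by gene length and by a depth term for each sample, as the authors deposited them. Log2 fold changes are PD over DMSO on the log2(FPKM + 1) scale with their standard error (SE), which understates changes of low genes. A gene was past the test at an adjusted p under 0.05 in limma, with Benjamini-Hochberg adjustment over all genes tested. Whole reads recovered from the table summed to between 15328454 and 15821524 in the PD samples and between 14915538 and 16341687 in the DMSO samples. The depth term was 1.00, 0.997 and 0.947 times that sum in PD replicates 1 to 3. In DMSO replicates 1 to 3 it was 1.03, 1.10 and 1.08 times the sum, higher than in any PD sample. Scaling to the sums themselves would thus lower PD against DMSO. PD replicate 3 and DMSO replicate 1 stood apart from the other libraries on the second principal component, which held 18.9% of the variance. Deviations from the group mean followed transcript GC content across 13572 genes in most libraries, with a Spearman rho of 0.61, 0.02 and -0.52 in PD replicates 1 to 3 and of -0.64, 0.46 and 0.54 in DMSO replicates 1 to 3. Scaling every sample to the same FPKM total moved the median log2 fold change of all genes by -0.13, and changes smaller than that depend on the scaling. Markers of the labelled tissue were nearly absent: 0 of 5 epithelial genes (EPCAM, CDH1 and keratins), 0 of 6 gastric genes and 1 of 5 intestinal genes (CDX2) reached 1 FPKM in any sample. Of 4 fibroblast genes 1 reached it: LUM had 8.27, 9.93 and 10.6 FPKM in PD, against 16.5, 11.5 and 12.9 FPKM in DMSO, lower in every PD sample. DCN, PDGFRA and COL1A1 stayed under 1 FPKM, as did 3 blood cell genes, and the part of such cells in the results was not tested.

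Of the 10 clock genes, 6 were past the test as higher in PD (NR1D1, BHLHE40, CRY1, PER1, PER3 and CRY2) and 0 as lower, where 14.3% of all genes tested were past it as higher and 12.7% as lower. NR1D1 and BHLHE40 also passed the 2-fold criterion named in the labels, which 2.84% of all genes met upward and 0.979% downward. In the same 6 genes all PD samples lay above all DMSO samples, as in 22.5% of all genes tested, and in PER2 all PD samples lay below, as in 21.9%. The median log2 fold change was 0.56 over the 10 genes and 0.00 over all genes tested. Since the samples that chose the set also gave these counts, nothing is read from them about the clock as a whole. In bulk RNA, fewer cells with a transcript and less of it per cell cannot be told apart.

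**Figure D1:**
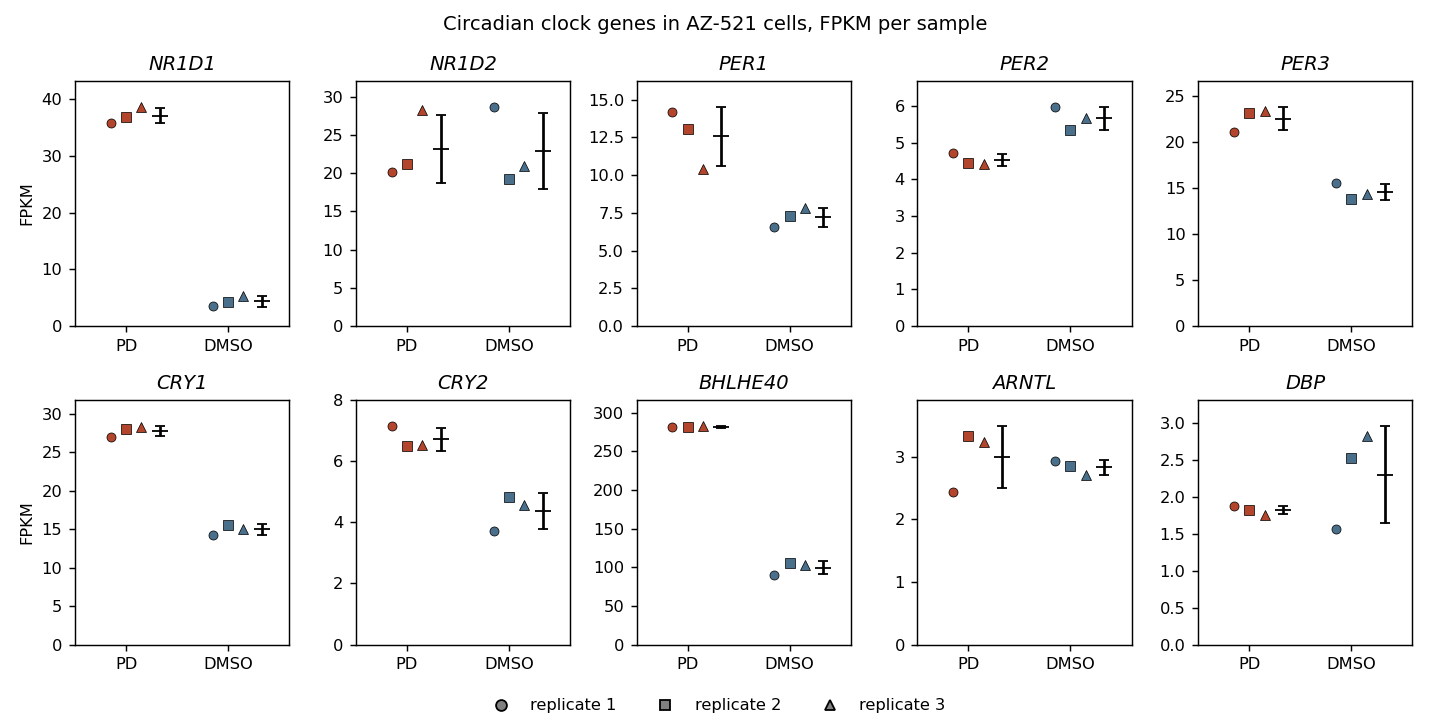
FPKM of the 10 clock genes in each of the 3 PD and 3 DMSO samples, on axes that start at 0. Symbols mark the replicate number, and horizontal marks with bars are the mean and SD of each group. The groups are far apart in NR1D1 and BHLHE40, and they overlap in NR1D2, ARNTL and DBP.

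Among the REV-ERB receptors NR1D1 differed between the groups and NR1D2 did not differ beyond its spread. NR1D1 (ENSG00000126368, chromosome 17, 40092787 to 40100725 on GRCh38, minus strand) had 35.9, 36.9 and 38.6 FPKM in PD replicates 1 to 3, against 3.48, 4.29 and 5.31 FPKM in DMSO replicates 1 to 3. All PD samples were far above all DMSO samples, and the means stood at 37.1 ± 1.38 FPKM in PD and 4.36 ± 0.92 FPKM in DMSO (SD, n = 3 each). The log2 fold change was 2.84 ± 0.13 (SE), which was rank 8 among the 13579 genes tested, and the means differed 8.51-fold. It rested on 1527 to 1604 reads per sample in PD and 148 to 260 in DMSO. Its paralog NR1D2 (chromosome 3, 23945260 to 23980618) had 20.1, 21.2 and 28.2 FPKM in PD, against 28.6, 19.3 and 21.0 FPKM in DMSO. The groups of NR1D2 overlapped throughout, with a log2 fold change of 0.02 ± 0.18, and the sign turned negative with equal totals (-0.14), under quantile scaling (-0.06) and without PD replicate 3 (-0.13), DMSO replicate 2 (-0.09) or DMSO replicate 3 (-0.04). Its highest samples were PD replicate 3 and DMSO replicate 1, the libraries that stood apart, and its longest transcript has a GC content of 38.5%. Without these 2 libraries its log2 fold change was 0.04 ± 0.08, and after GC correction it was 0.08 ± 0.10. Leaving out the highest sample of each group narrows the SE by itself, and the cause of the spread was not tested.

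The makeup of the REV-ERB transcripts differed accordingly. Summed over both genes, the level was 56.0, 58.1 and 66.8 FPKM in PD, against 32.1, 23.6 and 26.3 FPKM in DMSO. NR1D1 made up 61.8 ± 3.50% of that sum in PD and 16.4 ± 4.94% in DMSO (SD, n = 3 each). The order of the paralogs was thus opposite in the groups: NR1D1 was above NR1D2 in every PD sample and below it in every DMSO sample.

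**Figure D2:**
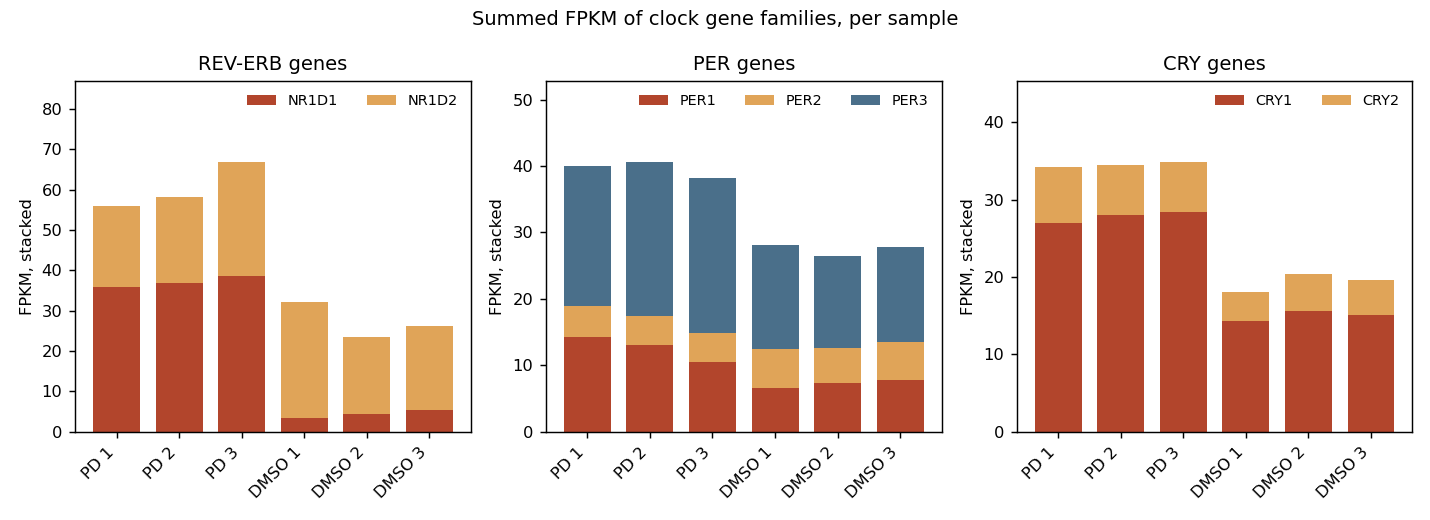
Stacked FPKM of the REV-ERB, PER and CRY genes in each PD and DMSO sample, with 1 bar per sample and 1 colour per gene. NR1D1 takes between 57.8% and 64.0% of the REV-ERB bar in PD and between 10.8% and 20.2% in DMSO, while CRY1 takes most of the CRY bar in both groups.

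The end of NR1D1 overlaps THRA, the thyroid hormone receptor alpha gene on the opposite strand, between 40092787 and 40093867 on chromosome 17. They share 263 exonic bases, 9.49% of the exonic length of NR1D1, and the sources used here do not say whether counting used the strand. THRA had 2.82, 2.57 and 2.30 FPKM in PD, against 1.87, 2.60 and 2.14 FPKM in DMSO. The THRA groups overlapped, with a log2 fold change of 0.16 ± 0.12 that was not past the test (limma adjusted p = 0.378). NKIRAS1, on the opposite strand to NR1D2, shares 0 exonic bases with it and was not past the test (limma adjusted p = 0.12). THRA held 240 to 301 reads per PD sample, and NR1D1 held 1527 to 1604. The part of reads from the shared bases in either gene was not tested.

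For each receptor a RefSeq promoter window is printed with its clock motif letters, for NR1D2 the one of its 2 windows that held any. Windows (GRCh38.p14) run from 250 bases before to 50 after a start, 5′ to 3′ along the gene. Positions are counted from 0 at the start, and letters outside the windows were not searched. Both strands were searched for the E-box CACGTG, the related E′-box CACGTT, the D-box as TTATGTAA or TTACGTAA, the RORE, its core AGGTCA and the cAMP response element TGACGTCA, where the core can lie inside a RORE. Capitals mark every match. The NR1D1 window is chr17:40100540-40100839 on the minus strand, and the NR1D2 window is chr3:23945871-23946170 on the plus strand.
NR1D1: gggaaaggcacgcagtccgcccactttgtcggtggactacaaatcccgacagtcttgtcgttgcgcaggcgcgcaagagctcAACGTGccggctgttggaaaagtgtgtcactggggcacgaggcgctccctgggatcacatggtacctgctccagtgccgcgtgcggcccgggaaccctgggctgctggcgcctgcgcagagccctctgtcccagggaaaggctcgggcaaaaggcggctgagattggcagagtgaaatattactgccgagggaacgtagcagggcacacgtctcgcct
NR1D2: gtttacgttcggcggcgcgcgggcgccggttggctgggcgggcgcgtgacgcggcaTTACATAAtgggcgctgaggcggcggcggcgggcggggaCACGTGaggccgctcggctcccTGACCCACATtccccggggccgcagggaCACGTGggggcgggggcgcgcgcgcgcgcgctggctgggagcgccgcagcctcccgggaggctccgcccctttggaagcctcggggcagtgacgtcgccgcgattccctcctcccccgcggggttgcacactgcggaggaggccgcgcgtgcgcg
The NR1D1 window held an E′-box in reverse (AACGTG) at position -168 and none of the other motifs. The NR1D2 window held 2 E-boxes, a D-box in reverse and a RORE in reverse, while the other RefSeq window of NR1D2 held none of them. Of 35116 RefSeq windows of the same length, 7.26% held the E-box, 5.34% the E′-box, 1.01% the D-box, 0.675% the RORE and 13.8% the core AGGTCA; 1.85% held the cAMP response element, which no window of the set held. A match is only a run of letters, and the windows say nothing of what was bound.

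The PER genes, which encode the PERIOD proteins that enter the nucleus with CRY, did not differ alike: PER1 and PER3 were higher in PD and PER2 was lower. PER1 (chromosome 17, 8140472 to 8156506) had 14.2, 13.0 and 10.4 FPKM in PD, against 6.56, 7.29 and 7.79 FPKM in DMSO. All PD samples of PER1 were higher, with a log2 fold change of 0.72 ± 0.13 and with PD replicate 3 the nearest to DMSO. PER3 (chromosome 1, 7784320 to 7845177) had 21.1, 23.1 and 23.4 FPKM in PD, against 15.5, 13.8 and 14.4 FPKM in DMSO. The PER3 groups did not overlap either, and the log2 fold change was 0.59 ± 0.09. PER2 (chromosome 2, 238244038 to 238290102) had 4.72, 4.46 and 4.41 FPKM in PD, against 5.96, 5.35 and 5.66 FPKM in DMSO. PER2 was thus lower in every PD sample, with a log2 fold change of -0.27 ± 0.08, but it was not past the test as deposited. It was past it as lower with a pseudocount of 0.1, with equal totals, with voom on the recovered reads and after GC correction. PER2 made up 11.4 ± 0.41% of the summed PER level in PD and 20.6 ± 0.57% in DMSO (SD, n = 3 each), within sums of 38.2 to 40.6 FPKM in PD and 26.5 to 28.1 FPKM in DMSO.

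Overlapping annotation was small for PER1 and PER2 and larger for PER3. Z98884.1, an antisense gene inside PER3 that shares 482 exonic bases with it (5.95% of the PER3 exonic length), had 5.57, 5.49 and 2.09 FPKM in PD, against 1.57, 1.77 and 1.43 FPKM in DMSO. It rose by a log2 fold change of 0.98 ± 0.28 (limma adjusted p = 0.04), and it was past the test in 7 of 14 alternative settings. The call was lost without PD replicate 1 or 2 or any single DMSO replicate (adjusted p between 0.0762 and 0.129), and without PD replicate 3, its lowest PD sample, the log2 fold change was 1.34. It held 26 to 71 reads per PD sample, against 2626 to 2877 for PER3, and without strand its reads and those of PER3 cannot be told apart. UTS2 shares 868 exonic bases with PER3 and had 0 to 3 reads per sample. The microRNA gene MIR6883 inside PER1 was listed at 0 in every sample.

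The promoter windows of the 3 PER genes are printed together because PER2 had the opposite sign of PER1 and PER3. They are chr17:8152355-8152654 (minus strand) for PER1, chr2:238288561-238288860 (minus strand) for PER2 and chr1:7784041-7784340 (plus strand) for PER3, with matches in capitals as above.
PER1: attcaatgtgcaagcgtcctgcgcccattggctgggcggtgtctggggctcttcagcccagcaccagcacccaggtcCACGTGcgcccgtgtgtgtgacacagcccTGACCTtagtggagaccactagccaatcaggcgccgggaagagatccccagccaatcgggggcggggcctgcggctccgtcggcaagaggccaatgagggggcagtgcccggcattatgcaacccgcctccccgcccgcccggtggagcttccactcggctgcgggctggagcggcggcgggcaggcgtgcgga
PER2: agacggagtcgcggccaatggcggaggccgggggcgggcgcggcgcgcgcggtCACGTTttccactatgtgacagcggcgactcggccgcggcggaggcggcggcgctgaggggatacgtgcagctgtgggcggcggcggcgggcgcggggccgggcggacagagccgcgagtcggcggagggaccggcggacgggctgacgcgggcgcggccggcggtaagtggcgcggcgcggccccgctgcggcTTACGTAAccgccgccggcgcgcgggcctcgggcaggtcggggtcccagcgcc
PER3: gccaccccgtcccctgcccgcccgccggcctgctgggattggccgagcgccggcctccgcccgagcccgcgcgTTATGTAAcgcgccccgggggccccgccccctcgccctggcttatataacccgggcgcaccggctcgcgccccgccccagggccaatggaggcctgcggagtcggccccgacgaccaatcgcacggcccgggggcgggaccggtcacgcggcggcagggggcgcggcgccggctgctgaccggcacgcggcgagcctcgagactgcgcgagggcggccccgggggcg
The PER1 window held an E-box and the core AGGTCA in reverse. The PER2 window held an E′-box and, across the start itself, the D-box TTACGTAA. The PER3 window held the D-box TTATGTAA and no E-box, and a second PER3 window that overlaps it held none of the motifs. In the set, D-box letters were found beside PER3, which was higher in PD, PER2, which was lower, and NR1D2, whose groups overlapped. Any bearing of these letters on the direction was not tested.

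Both cryptochrome genes, whose products bind CLOCK and ARNTL and block them, were higher in PD. CRY1 (chromosome 12, 106991364 to 107093829) had 27.0, 28.0 and 28.3 FPKM in PD, against 14.3, 15.6 and 15.03 FPKM in DMSO. The replicates lay close together, and the log2 fold change was 0.85 ± 0.08. CRY2 (chromosome 11, 45847118 to 45883248) had 7.16, 6.49 and 6.53 FPKM in PD, against 3.72, 4.84 and 4.57 FPKM in DMSO. The CRY2 groups did not overlap, and the log2 fold change was 0.53 ± 0.11. CRY1 supplied 80.5 ± 1.26% of the summed CRY level in PD and 77.5 ± 1.66% in DMSO (SD, n = 3 each), the larger part in both groups. CRY2 was not past the test in the fit with a replicate block. In the RefSeq windows CRY1 held 1 E′-box in reverse, and CRY2 held 1 in reverse in 1 of its 2 windows. Both CRY2 windows also held the core AGGTCA, at positions -62 and -64.

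BHLHE40, an E-box repressor also known from hypoxia and stress responses, had the highest level of the set in both groups. BHLHE40 (ENSG00000134107, chromosome 3, 4979116 to 4985323) had 281, 281 and 283 FPKM in PD, against 90.2, 105 and 103 FPKM in DMSO. The PD samples were almost identical, at 282 ± 1.11 FPKM in PD against 99.5 ± 8.14 FPKM in DMSO (SD, n = 3 each). The log2 fold change was 1.495 ± 0.09, rank 120 among all genes tested. Its antisense neighbour BHLHE40-AS1 shares 4 exonic bases with it and had 15 to 35 reads per sample. Its window, chr3:4979187-4979486 on the plus strand, is printed because it carries an E-box at its far end, at position -245.
BHLHE40: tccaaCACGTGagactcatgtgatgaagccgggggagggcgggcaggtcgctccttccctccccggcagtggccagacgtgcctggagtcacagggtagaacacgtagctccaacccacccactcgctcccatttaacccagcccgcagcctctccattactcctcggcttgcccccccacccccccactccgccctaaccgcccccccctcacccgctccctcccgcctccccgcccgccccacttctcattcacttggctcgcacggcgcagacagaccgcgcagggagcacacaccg
Its paralog BHLHE41 (DEC2) lay much lower, at 2.47 ± 0.45 FPKM in PD and 1.10 ± 0.17 FPKM in DMSO (SD, n = 3 each), and it rose by a log2 fold change of 0.72 ± 0.14 (limma adjusted p = 0.00918).

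ARNTL, the activator that drives the loop, did not differ beyond its spread. ARNTL (chromosome 11, 13276652 to 13387266) had 2.43, 3.33 and 3.23 FPKM in PD, against 2.93, 2.85 and 2.70 FPKM in DMSO. The groups overlapped, with a log2 fold change of 0.05 ± 0.12, and the sign turned negative with equal totals (-0.07) and without PD replicate 2 (-0.01). ARNTL is the textbook target of NR1D1, and its level rested on 251 to 344 reads per sample. One of its RefSeq windows, chr11:13277540-13277839 on the plus strand, is printed for the RORE whose first base is at position 27.
ARNTL: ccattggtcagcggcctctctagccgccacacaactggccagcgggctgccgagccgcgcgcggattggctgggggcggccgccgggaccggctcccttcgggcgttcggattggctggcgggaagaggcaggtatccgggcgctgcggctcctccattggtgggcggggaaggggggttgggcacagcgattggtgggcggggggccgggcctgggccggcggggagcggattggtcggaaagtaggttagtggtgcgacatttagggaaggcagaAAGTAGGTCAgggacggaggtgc
Of the other activators CLOCK, the partner of ARNTL, had 7.03, 7.57 and 8.18 FPKM in PD, against 6.96, 5.53 and 5.47 FPKM in DMSO. All PD samples of CLOCK were higher, but its log2 fold change of 0.30 ± 0.11 was not past the test (limma adjusted p = 0.0844). CLOCK was past it without DMSO replicate 1 (0.0286), without that library and PD replicate 3 (0.0265), with voom (0.0442) and after GC correction (0.00284). ARNTL2 and RORA, a receptor that activates through the RORE, had log2 fold changes of -0.24 ± 0.14 and 0.12 ± 0.15 (limma adjusted p = 0.234 and 0.584), and RORA turned to -0.01 with equal totals. NPAS2 and RORB were too low to be tested.

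DBP, the D-box activator that CLOCK and ARNTL normally drive, was the lowest of the set. DBP (chromosome 19, 48630030 to 48637438) had 1.88, 1.83 and 1.76 FPKM in PD, against 1.56, 2.53 and 2.83 FPKM in DMSO. DMSO replicate 1 lay below all PD samples and the other DMSO samples above them, so that the log2 fold change of -0.21 ± 0.16 moved to -0.38 without that library and to -0.09 without DMSO replicate 3. DBP shares 661 exonic bases, 10.1% of its exonic length, with SPHK2 on the opposite strand. SPHK2 had 132 to 266 reads per sample in PD and 288 to 361 in DMSO, while DBP had 173 to 189 in PD and 157 to 327 in DMSO. Without strand the reads of DBP and SPHK2 cannot be told apart where they overlap. TEF, a D-box activator of the same family, had 3.54, 3.56 and 3.69 FPKM in PD, against 6.14, 5.24 and 5.97 FPKM in DMSO, and fell by 0.56 on the log2 scale (limma adjusted p = 0.00531). HLF, also of this family, was too low to be tested, at 0.18 ± 0.11 FPKM in PD and 0.40 ± 0.05 FPKM in DMSO (SD, n = 3 each). NFIL3, which represses through the D-box, had a log2 fold change of -0.04 ± 0.09 (limma adjusted p = 0.782) and turned to 0.02 without DMSO replicate 1.

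**Figure D3:**
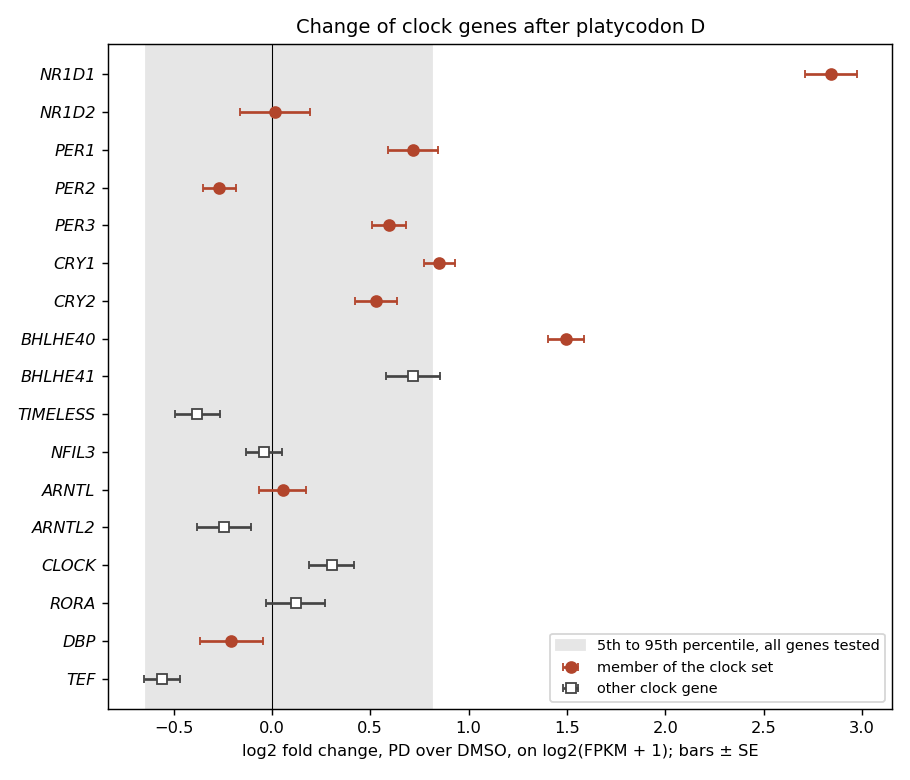
Log2 fold change, PD over DMSO, with its SE for the 10 clock genes (filled circles) and for the tested clock genes outside the set (open squares). The grey band spans the 5th to the 95th percentile of all 13579 genes tested, from -0.64 to 0.81, and NR1D1, BHLHE40 and CRY1 lie above it.

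Ordered by level per length, the set ran in PD from BHLHE40 through NR1D1, CRY1, NR1D2, PER3, PER1, CRY2, PER2 and ARNTL to DBP. The ranges overlapped between CRY1 and NR1D2 and between NR1D2 and PER3, and between no other neighbours in that order. In DMSO the order was BHLHE40, NR1D2, CRY1, PER3, PER1, PER2, CRY2, NR1D1, ARNTL and DBP, with overlaps between CRY1 and PER3, CRY2 and NR1D1, and ARNTL and DBP. NR1D1 thus stood at place 2 in PD and at place 8 in DMSO. These places depend on the gene length, which counts all annotated exons in the table. It was 6726 bases for ARNTL and 7002 bases for PER1, whose longest transcripts have 3862 and 4707 bases, while both lengths were 2772 bases for NR1D1. Per longest transcript NR1D1 stayed at place 2 in PD, just above CRY1 (37.1 and 36.7), and stood at place 9 in DMSO, below ARNTL (4.36 and 4.93).

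The rest of the pathway was read from 12 lists with 88 genes, of which 71 could be tested, 15 rose and 5 fell. These counts are 21.1% and 7.04% of the genes tested, against 14.3% and 12.7% of all genes, and the median log2 fold change over the 71 genes was -0.004. Of the 15 that rose, 5 came from the list around CREB. Its early response genes were already known to be high in these samples when the list was made. NR4A2 of that list was tested only through its PD samples. The share that rose is thus a description and no test of the pathway. At an unadjusted p under 0.05 the counts were 17 and 11, where 20.6% of all genes were higher and 19.6% lower, and with voom they were 16 and 8, where 15.9% were higher and 15.8% lower. The shares of all genes are the background for each list below, and lists of so few genes are described only. Of 14 kinases and phosphatases that act on clock proteins 0 were past the test in limma, while 1 was higher and 2 were lower at an unadjusted p under 0.05 and 1 was lower with voom. The 2 genes with the highest level, PPP1CB and PPP1CA, had log2 fold changes of -0.16 and -0.27. PPP1CB changed sign without DMSO replicate 1 (0.01), and PPP1CA fell past the test with equal totals, under quantile scaling and after GC correction (adjusted p = 0.022, 0.0371 and 0.0234). Of 10 coregulators of the clock 0 were past the test in limma, 1 was lower at an unadjusted p under 0.05 and 0 were past it with voom. SIRT1, a deacetylase, and WDR5, a part of histone methyltransferase complexes, had the highest means over all 6 samples among them and log2 fold changes of 0.31 ± 0.16 and 0.01 ± 0.08 (limma adjusted p = 0.181 and 0.92). WDR5 changed sign with equal totals (-0.14), and SIRT1 rose past the test without DMSO replicate 1 (adjusted p = 0.0432), without it and PD replicate 3 (0.0245) and after GC correction (0.0265). Of 10 genes of clock protein ubiquitination 1 rose and 1 fell. USP2, a deubiquitinase and clock output gene, rose by 0.54 ± 0.11 (limma adjusted p = 0.0114; 0.0537 with a replicate block). SIAH2, a ubiquitin ligase of NR1D1, fell by 0.33 on the log2 scale (limma adjusted p = 0.0227), and the call was lost in 5 of 15 alternatives, among them those without PD replicate 1 or 2 or DMSO replicate 2 or 3. TIMELESS, which also serves DNA replication, fell by 0.38 (limma adjusted p = 0.0476) and was past the test in 7 of 15 alternatives; leaving out any single library other than PD replicate 1 ended the call (adjusted p between 0.0681 and 0.147). CIART, which represses CLOCK and ARNTL, was too low to be tested, with 0.58, 0.51 and 0.47 FPKM in PD, against 0, 0.11 and 0.23 FPKM in DMSO.

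**Figure D4:**
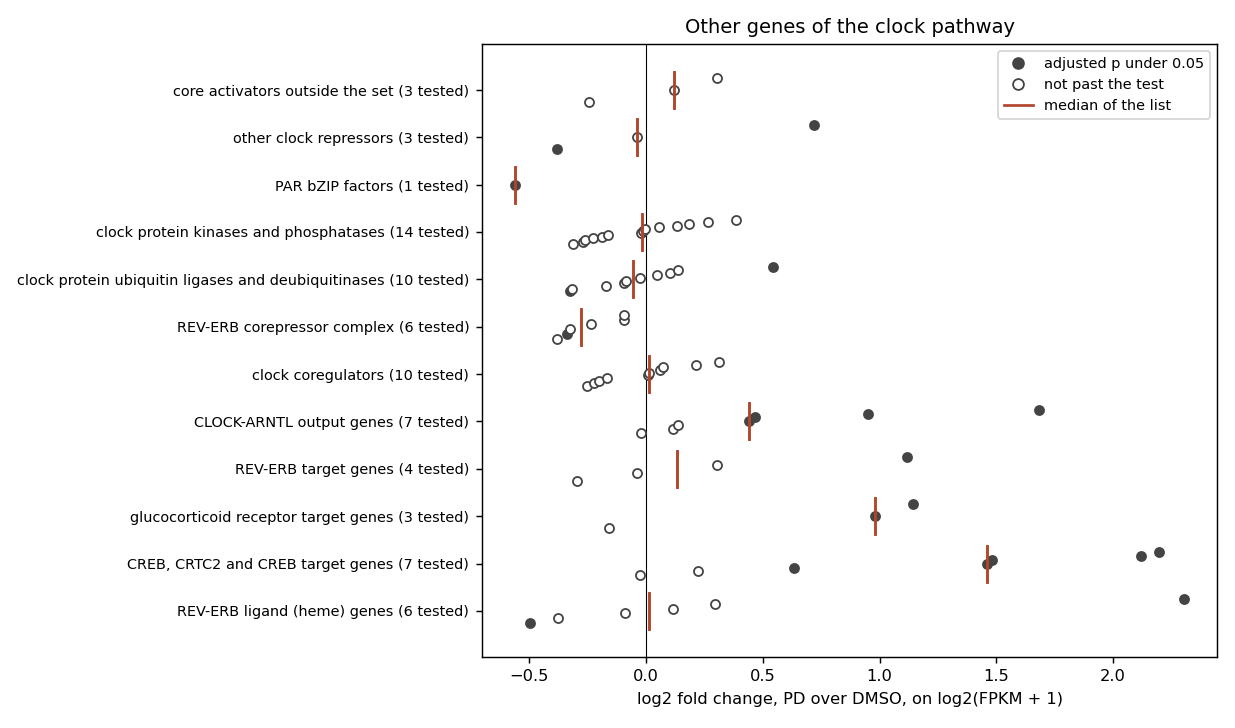
Log2 fold change, PD over DMSO, of the tested genes in 12 lists of the clock pathway, with 1 point per gene, filled where the adjusted p was under 0.05, and a line at each list's median. Kinases and coregulators lie on both sides of 0, with medians of -0.02 and 0.01, and the largest rises are those of HMOX1, NR4A3 and FOS.

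Of 6 genes of the corepressor complex through which REV-ERB receptors silence genes, 0 rose and 1 fell. None was higher at an unadjusted p under 0.05 or with voom, and 3 and 2 were lower. The gene that fell was NCOR1, named after its value was seen, which had 7.98, 7.90 and 6.79 FPKM in PD, against 9.43, 9.84 and 10.1 FPKM in DMSO (limma adjusted p = 0.0324; past the test in 8 of 15 alternatives). Leaving out any single library other than DMSO replicate 1 ended the call of NCOR1 (adjusted p between 0.0574 and 0.11). TBL1XR1, another gene of this list, had a log2 fold change of -0.09 that was not past the test (limma adjusted p = 0.729), and it changed sign without DMSO replicate 1 (0.09). Of 6 genes that make, break or carry heme, the REV-ERB ligand, 1 rose and 1 fell. HMOX1, which degrades it, rose by 2.30 ± 0.15 and FECH, which makes it, fell by 0.50 (limma adjusted p = 0.00016 and 0.00999).

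Among output genes of CLOCK and ARNTL 4 of 7 tested genes rose and 0 fell, where 14.3% of all genes rose and 12.7% fell. The counts were equal at an unadjusted p under 0.05 and by voom, and the median log2 fold change was 0.44. NOCT, a rhythmic phosphatase known as nocturnin, had 53.5, 56.9 and 62.4 FPKM in PD, against 16.6, 17.2 and 17.8 FPKM in DMSO, and rose by 1.68 ± 0.09 (limma adjusted p = 7.19e-05). WEE1, a kinase that delays mitosis, had 21.2, 21.5 and 26.4 FPKM in PD, against 12.1, 11.07 and 11.05 FPKM in DMSO (limma adjusted p = 0.00132). NAMPT and KLF10 rose by 0.47 and 0.44 (limma adjusted p = 0.0401 and 0.0481), and they were past the test in 7 and 6 of 15 alternatives. Leaving out any single library other than DMSO replicate 1 ended the call of both genes (adjusted p between 0.0584 and 0.145).

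PER1 also answers cAMP and glucocorticoid signals, and genes of these inputs were tested as well. Any bearing of these genes on the level of PER1 was not tested. Of 7 tested genes around CREB 5 rose and 0 fell, by limma, at an unadjusted p under 0.05 and by voom, with a median log2 fold change of 1.46. NR4A2 was tested only through its PD samples, as it stayed under 1 FPKM in every DMSO sample; without it 4 of 6 rose and the median was 1.05. NR4A3 and FOS rose by 2.20 ± 0.12 and 2.12 ± 0.08, and NR4A1 by 1.46 ± 0.11 (limma adjusted p = 8.25e-05, 2.42e-05 and 0.000296). NR4A2 had 3.35, 2.84 and 2.47 FPKM in PD, against 0.476, 0.37 and 0.314 FPKM in DMSO. The coactivator gene CRTC2 was the fifth to rise (0.63 ± 0.13, limma adjusted p = 0.0118) and was past the test in 13 of 15 alternatives, not with a replicate block or without PD replicate 2 (0.0512), while CREB1 and CREM were not past the test. SIK1, also of this list, was too low to be tested. The early response genes of the list were already known to be high in these samples when it was made. Of 3 tested glucocorticoid targets 2 rose and 0 fell by the same counts. KLF9 and DUSP1 rose by 0.98 ± 0.13 and 1.14 ± 0.09 (limma adjusted p = 0.00242 and 0.000394), and FKBP5 had a log2 fold change of -0.16 that was not past the test. The other 4 genes of this list were too low to be tested. SGK1 had 0.71, 0.814 and 0.941 FPKM in PD, against 0.0912, 0.164 and 0.181 FPKM in DMSO, and PDK4 had 0.274, 0.173 and 0.251 FPKM in PD, against 0.547, 0.311 and 0.715 FPKM in DMSO. SGK1 was higher and PDK4 lower in every PD sample, while TSC22D3 and ZBTB16 stayed below 0.02 FPKM.

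The protein-coding genes whose values followed NR1D1 most closely over the 6 samples were FOSB, RHOB, ATP6V0D1, ALOXE3 and FDFT1. They were taken from 7198 genes whose mean in PD or DMSO reached 5 FPKM, by Pearson's r on log2(FPKM + 1), which was 0.999 for each of the 5. The samples fall into 2 groups, so any gene that differs between the groups scores high, and 605 genes had an r above 0.95. The likeness also rests on the NR1D1 values that chose the set, and FOSB and ALOXE3 reached 5 FPKM in PD only. FOSB had 6.05, 6.11 and 5.72 FPKM in PD, against 0.34, 0.475 and 0.694 FPKM in DMSO. RHOB had 194, 179 and 200 FPKM in PD, against 41.6, 47.8 and 55.1 FPKM in DMSO.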

How the data were processed

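Polyadenylated RNA from 3 PD and 3 DMSO samples of AZ-521 cells was sequenced in pairs after a stranded library kit, per the labels' protocols. The authors deposited FPKM values per gene. The sources used here do not name aligner, counter or annotation. GRCm38 and mm10 stand in the submitters' processing notes, but all 58735 identifiers, coordinates and strands equal those of human GENCODE release 29 (GRCh38). Gene names turned into dates (27) were replaced through the identifiers. Columns were matched to samples by group prefix and title number; no per-sample column was left out.

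FPKM times gene length was a whole multiple of 1 step per sample for 100% of values above 0 (tolerance 0.01), which gave reads. The 13579 genes that reached 1 FPKM in 3 or more samples were compared as log2(FPKM + 1) by the moderated test of limma 3.58.1 (R 4.3.3; two-sided, with a mean-variance trend and no covariate). On simulated reads (13672 genes), 98% of 3-fold and 10% of 1.5-fold rises were recovered. The simulation changed few genes, gave all genes the same dispersion and had no GC effect. Its percentages therefore need not hold for the real samples, where far more genes were past the test. Members, lists and tests were chosen with earlier results of these data known. Named were all members, tested core clock genes, genes overlapping a member, 5 genes most like NR1D1 and, per further list, up to 4 genes past the test or the 2 with the highest level; a few of these are not reported here. Promoter windows are RefSeq's (GRCh38.p14); all 10 members matched, ARNTL as BMAL1. In all, 15 alternative settings were run. Figures were drawn with matplotlib 3.10.9.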

Additional observations from a re-analysis of the deposited data

How the results depend on the processing

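Since these samples chose the set, the members' calls under other settings are a description of the processing and no sign of stability. Over 15 alternative settings NR1D1, BHLHE40, CRY1, PER1 and PER3 were past the test as higher in every one, and CRY2 in all but the replicate block. Log2 fold changes ranged from 2.69 to 3.10 for NR1D1, from 1.27 to 1.54 for BHLHE40, from 0.70 to 0.91 for CRY1, from 0.57 to 0.83 for PER1, from 0.44 to 0.64 for PER3, from 0.39 to 0.62 for CRY2 and from -0.40 to -0.22 for PER2. ARNTL and DBP gave no value at a mean of at least 5 FPKM. The number of members lower past the test was 0 as deposited and 1 (PER2) with a pseudocount of 0.1, equal totals, voom and GC correction.

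The number of genes past the test was 3678; it was 2214 at a mean of at least 5 FPKM and between 2003 and 4558 with samples left out (PD replicates 1, 2 and 3: 2423, 2003 and 3534; DMSO replicates 1, 2 and 3: 3415, 2235 and 2230; PD replicate 3 together with DMSO replicate 1: 4558). With at least a 2-fold change it was 519, against 962 with a pseudocount of 0.1, 304 at a mean of at least 5 FPKM and 1037 with voom. With equal totals 1290 genes were higher and 3158 lower, against 1947 and 1731 as deposited.

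Of the other clock pathway genes 5 fell; the number was 17 with equal totals, 14 with GC correction, 11 with quantile scaling, 10 without DMSO replicate 1 and PD replicate 3, 8 with voom, 3 with no filter and between 2 and 6 with single samples left out. The log2 fold change changed sign for genes not past the test. RORA turned to -0.0061 with equal totals. With samples left out it lay between -0.0801 and 0.0151 for NFIL3, between -0.3125 and 0.01 for PPP1CB, between -0.1933 and 0.0943 for TBL1XR1 and between -0.0332 and 0.0568 for WDR5. WDR5 also turned to -0.1435 with equal totals, -0.0722 with quantile scaling and -0.0303 with GC correction. The cause was not tested.

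With the replicate number as a block, 1844 genes were past the test, 5 members were higher, 11 other clock pathway genes rose, against 15 without it, and 2 fell. USP2 was among those no longer past it (adjusted p = 0.0537). Deviations from the group mean had a Pearson r of -0.39, 0.17 and -0.16 between same-numbered samples, in order of replicate number. Deviations also followed GC content in most libraries, so these values cannot tell whether same-numbered samples were handled together.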
